A study of Homo sapiens with 6 samples.

Results

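This section describes A549 cells that received a mimic of the microRNA miR-608, set against A549 cells that received a negative control mimic. A549 is an established human lung adenocarcinoma line. The miR-608 group and the control group have 2 bead arrays each, and the 2 arrays of cells transfected with miR-552-3p were left out of the normalization and of every comparison, so 4 of 6 arrays were used. All cells received their mimic with a lipid transfection reagent and gave total RNA 24 h later, so both groups share the transfection itself. All genes were taken whose probe had a detection p-value under 0.05 on at least 2 of the 4 arrays, which gave 11366 named genes of 20046 with a symbol on the array, and 4400 unnamed probes, 15766 rows in all. Whether the 2 arrays of a group are separate cultures is not stated, so the p-values measure the spread between these arrays alone, which may be technical. A549 is a single line, and a mimic is a transfected double-stranded RNA whose dose the labels do not state.

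A microRNA is loaded onto an Argonaute protein and pairs, mainly through the bases near its 5′ end called the seed, with sites in messenger RNAs, which are then degraded or translated less. Genes that fall soon after a mimic is added can be such direct targets or can lie downstream of them, and an array of total RNA level does not separate these. The mature sequence is given here because its seed fixes which sites it can pair with. It was taken from RefSeq on GRCh38.p14, where it lies at chr10:100975000-100975024 on the plus strand, within the span of the gene SEMA4G. Capitals mark seed bases 2 to 8.
hsa-miR-608: aGGGGUGGuguugggacagcuccgu
The DNA letters of a perfect seed match are CCACCCC. Of 2545 mature human microRNAs in the RefSeq table, 2 have this seed, the other being hsa-miR-4651. Transcript sequences were not used here, so seed matches in messenger RNAs were not counted.

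The arrays of a group resembled each other more than arrays of different groups. Across kept probes, which are not independent replicates, Pearson's r was 0.994 between the miR-608 arrays and 0.994 between the control arrays, against 0.975 to 0.976 between groups. The miR-608 arrays detected 18597 and 18852 probes and the control arrays 18550 and 19758. No array stood apart in brightness, with median signals between 187 and 201. Values below are log2 levels after background correction and quantile normalization, and differences are miR-608 minus control ± SE from limma, with Benjamini-Hochberg adjusted p-values over all 15766 rows and 2 arrays per group.

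Among named genes, 1805 (15.9%) were higher and 1870 (16.5%) were lower with miR-608 at an adjusted p under 0.05 (32.3% in either direction), and the median difference over all named genes was 0.02. Large changes were more often falls: 260 genes (2.29%) rose and 408 (3.59%) fell at least 2-fold. The 2 miR-608 arrays lay wholly above or below the 2 control arrays for 72.8% of named genes. Without miR-608 replicate 1 there were 432 rows higher and 719 lower, and without miR-608 replicate 2 there were 338 higher and 579 lower, where all 4 arrays gave 2208 and 2367. Without control replicate 1 or control replicate 2 limma called 0 rows, although 5272 and 5479 had an unadjusted p under 0.05. Every count of called genes below therefore falls to 0 when either control array is left out, and many lists are also given by their median difference and its range over the 4 fits that leave out 1 array. Of the kept named genes, 152 were detected with miR-608 alone and 246 with the control mimic alone, called single-group genes here. They were kept through the group where they are higher, and 100 of them were called higher and 154 lower. Their difference is therefore given as a bound with no p-value, and where leaving such members out changes the calls of a list, both counts are given.

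**Figure D1:**
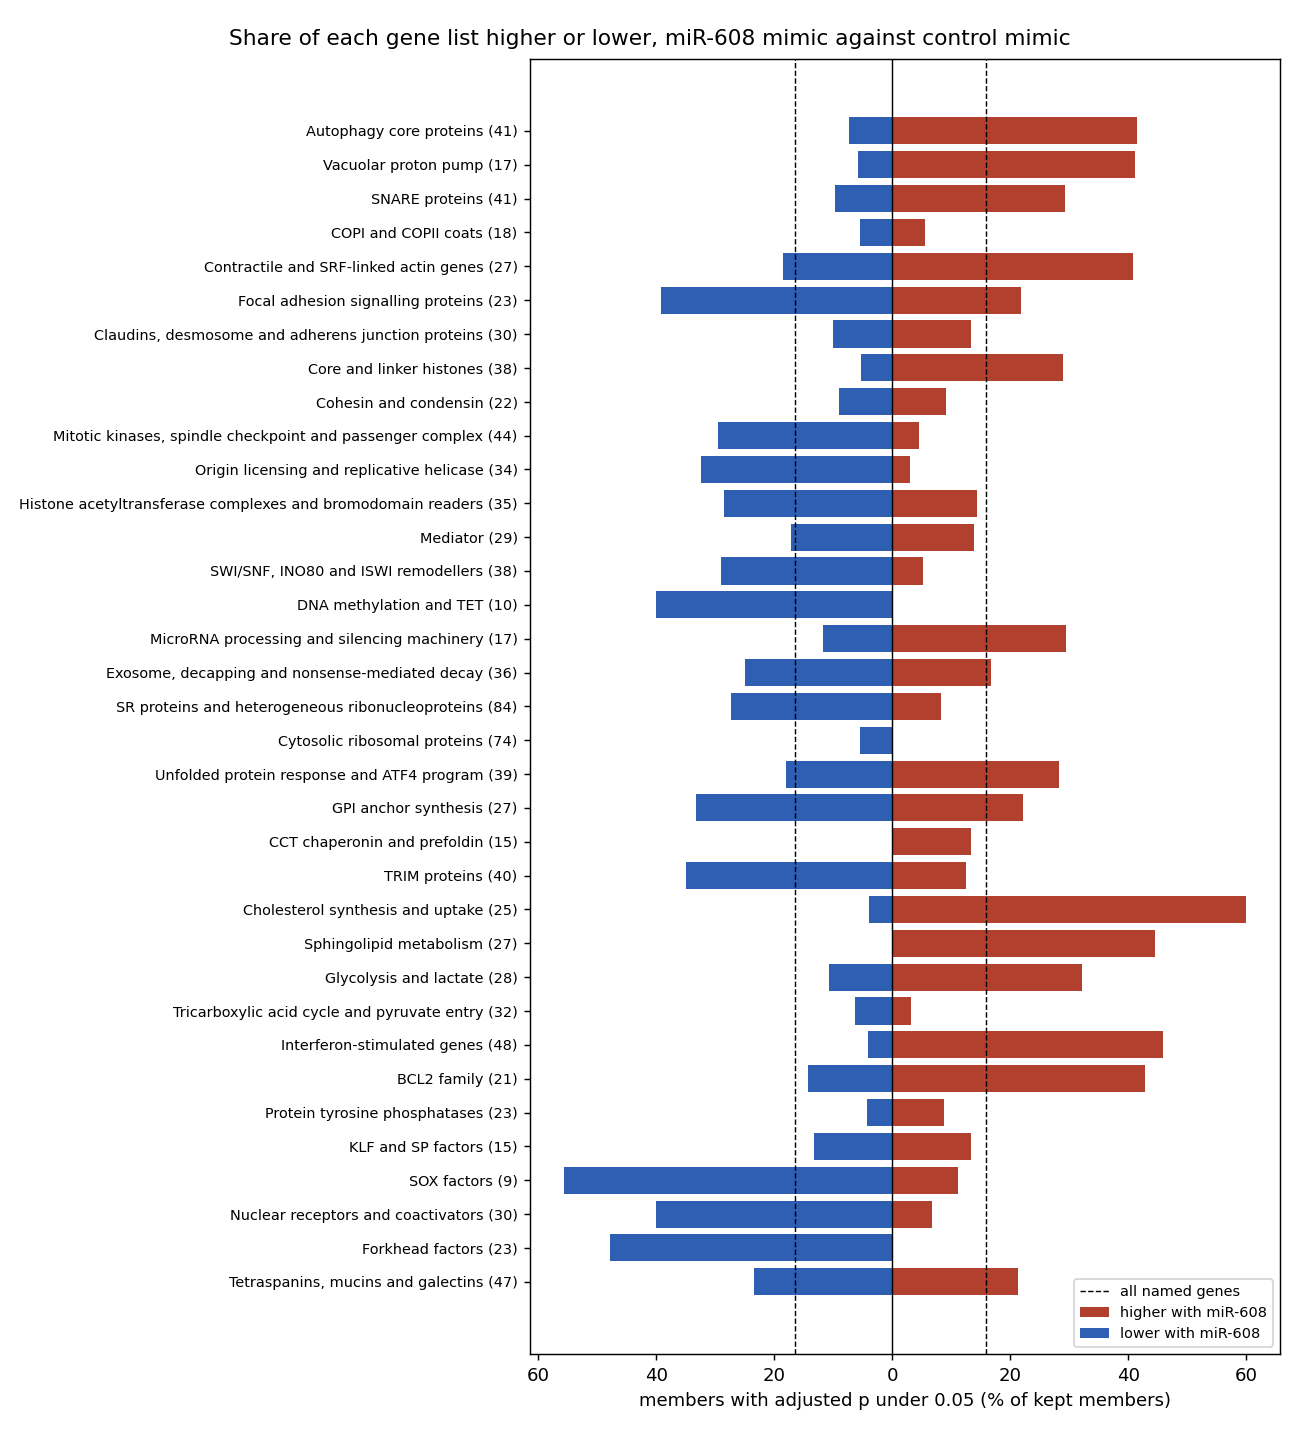
Share of kept members (number in brackets) of 35 gene lists that were higher (right, red) or lower (left, blue) with miR-608 than with the control mimic at an adjusted p under 0.05, in percent. Single-group genes are counted in the bars and in the dashed lines. Dashed lines are the shares over all named genes, 15.9% higher and 16.5% lower; lists of cholesterol, sphingolipid, autophagy and interferon genes reach far to the right, those of SOX, forkhead and nuclear receptor factors far to the left, and cytosolic ribosomal proteins stay short on both sides.

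Of the 141 lists, that of cholesterol synthesis and uptake was most often higher. Cells make cholesterol through the mevalonate pathway, whose genes are switched on by sterol-sensing SREBP factors when membrane sterol is low. In the cholesterol list 15 of 25 kept members rose and 1 fell (60.0% and 4.00%), with a median difference of 0.46 that lay between 0.42 and 0.47 when 1 array was left out. INSIG1, which holds SREBPs in the endoplasmic reticulum, stood at 12.81 and 12.79 with miR-608, against 11.79 and 11.73 with the control mimic, and rose by 1.04 ± 0.07 (adjusted p = 0.00635). The groups were well apart, with hardly any spread between the arrays of a group. The enzymes MSMO1 (1.05 ± 0.07), HMGCS1 (0.89 ± 0.08), MVD (0.56 ± 0.11) and SQLE (0.55 ± 0.08) rose too, as did the sterol exporter ABCG1 (0.85 ± 0.09). Of the other probes, 1 for MSMO1 (0.08) and 2 for ABCG1 (0.09 and -0.07) were not called. The single fall was that of SREBF1, which encodes an SREBP itself. It stood at 10.48 and 10.56 with miR-608, against 11.82 and 11.87 with the control mimic, a 2.51-fold fall (log2 difference -1.33 ± 0.08, adjusted p = 0.00604), and another SREBF1 probe fell as well.

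In the list of fatty acid synthesis, elongation and desaturation, 1 of 26 kept members rose and 4 fell, where 4 rose and 3 fell with median scaling. FASN, the fatty acid synthase, stood at 13.29 and 13.26 with miR-608, against 14.58 and 14.57 with the control mimic and fell by 1.30 ± 0.07 (adjusted p = 0.00604), while ACACA, which makes its substrate malonyl-CoA, fell by 0.43 ± 0.07. The elongase ELOVL4 rose by 0.74 ± 0.12. Of the fatty acid oxidation genes, 8 of 32 kept members rose and 2 fell, among them the carnitine palmitoyltransferases CPT1A (0.89 ± 0.09) and CPT2 (0.82 ± 0.08), which bring fatty acids into mitochondria.

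Sphingolipids are membrane lipids built on ceramide, which is converted to sphingomyelin or to sugar-bearing lipids. In that list 12 of 27 kept members rose and 0 fell (44.4% higher; 11 rose and 0 fell of 26 without single-group members, median 0.33), with a median of 0.35 (0.28 to 0.39 with 1 array left out). UGCG, the enzyme that adds the first glucose to ceramide, stood at 9.85 and 9.88 with miR-608, against 8.49 and 8.57 with the control mimic. Its miR-608 arrays both lay above both control arrays, a 2.53-fold rise (log2 difference 1.34 ± 0.08, adjusted p = 0.00604). B4GALT6, which adds the next sugar, rose by 0.97 ± 0.09, the sphingomyelin synthase SGMS2 by 0.64 ± 0.15, and the sphingosine-phosphate phosphatase SGPP1 by 0.67 ± 0.09. The acid sphingomyelinase SMPD1 rose by 0.78 ± 0.13, where a second, dimmer SMPD1 probe gave -0.01 and was not called. The ceramide synthase CERS1 was detected on both miR-608 arrays and on neither control array, and was at least 1.15-fold higher. Such bounds set the mean of the detected group against the lowest detectable level of the other.

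Sugar and mitochondrial metabolism gave a mixed picture. Of the glycolysis genes 9 of 28 kept members rose and 3 fell, with a median of 0.16. The rises were those of the enolases ENO2 (1.05 ± 0.07) and ENO3 (0.68 ± 0.08), the glucose transporter SLC2A1 (0.77 ± 0.09), the hexokinase HK1 (0.74 ± 0.07), the phosphofructokinase PFKL (0.73 ± 0.12) and the regulator PFKFB4 (0.59 ± 0.14), with others. PKM, the last enzyme of the pathway, fell by 0.52 ± 0.08, as its 2 other probes did by similar amounts, PFKFB3 by 0.69 ± 0.08 and the pyruvate dehydrogenase kinase PDK4 by 0.90 ± 0.08. In the tricarboxylic acid cycle 1 of 32 rose and 2 fell (7 rose and 1 fell with median scaling), the largest change being that of OGDH (-0.94 ± 0.09), the core of the oxoglutarate dehydrogenase. Of the mitochondrial import and dynamics genes 4 of 46 kept members rose and 13 fell, among them TOMM40 (-1.21 ± 0.08), the pore of the outer membrane, TIMM17B (-1.20 ± 0.16) of the inner membrane and the prohibitin PHB2 (-1.07 ± 0.08).

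Autophagy, in which cells enclose cytoplasm in a membrane and deliver it to lysosomes, was among the lists with many rises. Of its core genes 17 of 41 kept members rose and 3 fell (41.5% and 7.32%), and the median was 0.37 (0.29 to 0.38 with 1 array left out). WIPI1, which binds the lipid of the forming membrane, stood at 9.45 and 9.63 with miR-608, against 8.02 and 7.67 with the control mimic. The difference of 1.69 ± 0.15 (adjusted p = 0.00792) was the largest of the list, and the groups did not overlap. The cargo receptor SQSTM1, one of the brightest probes of the list, stood at 15.56 and 15.64 with miR-608, against 14.74 and 14.62 with the control mimic and rose by 0.92 ± 0.09. The other receptors BNIP3L (1.09 ± 0.08), which marks mitochondria for removal, and OPTN (0.93 ± 0.11) rose, and so did ATG16L2 (0.99 ± 0.10) and WIPI2 (0.87 ± 0.13). The 3 falls were those of ATG13 (-0.995 ± 0.21) and ULK1 (-0.57 ± 0.07), both of the kinase complex that starts autophagy, and of MAP1LC3A (-0.37 ± 0.07), one of the LC3 proteins of the membrane.

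Lysosomes digest what autophagy and endocytosis bring, in an interior kept acid by a proton pump. Of the pump genes 7 of 17 kept members rose and 1 fell, but 2 rose and 1 fell when same-numbered arrays were paired. The median was 0.35 (0.31 to 0.35 with 1 array left out). The rises were of similar size, with ATP6V0B at 0.60 ± 0.08, ATP6V1D at 0.52 ± 0.07, ATP6V0E1 at 0.47 ± 0.08, ATP6V1A at 0.45 ± 0.08, ATP6V1G1 at 0.36 ± 0.08 and the accessory subunit ATP6AP1 at 0.36 ± 0.08, while ATP6V0E2, the paralogue of ATP6V0E1, fell by 0.74 ± 0.07. Among lysosomal enzymes and membrane proteins 14 of 48 kept members rose and 3 fell, with 39 of them above 0 and a median of 0.28. The sulfatase ARSA rose by 1.14 ± 0.11, the calcium channel MCOLN1 by 0.82 ± 0.13 and the fucosidase FUCA1 by 0.79 ± 0.08. TFE3, a transcription factor that switches on lysosomal and autophagy genes, moved the other way, at 6.84 and 6.26 with miR-608, against 8.31 and 8.40 with the control mimic (-1.80 ± 0.22, adjusted p = 0.0117). The protease TPP1 (-1.28 ± 0.09) and the membrane protein CLN3 (-1.07 ± 0.09) also fell.

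The promoter letters that TFE3 and its relatives are known to bind, TCACGTGA, were searched on both strands of the 300 bases around each gene's start in the RefSeq promoter table (GRCh38.p14). They stood in 6 of 37 lysosomal promoters with an entry, against 1.04% of all 27305 promoters. Of these 6 genes, 1 rose and 1 fell. The match of MCOLN1 is shown, with the motif in capitals, because it is the one gene of this list that rose and holds the letters.
MCOLN1, chr19:7522573-7522598, plus strand: cagaggcggTCACGTGAggggctctg
A match describes the letters and does not show binding. The sterol element TCACNCCAC stood in 0 of 22 cholesterol promoters with an entry and in 1.15% of all promoters. At so low a share, 22 promoters are too few for the 0 to set the list apart. No other spelling of the element was searched, and nothing beyond the 300 bases.

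**Figure D2:**
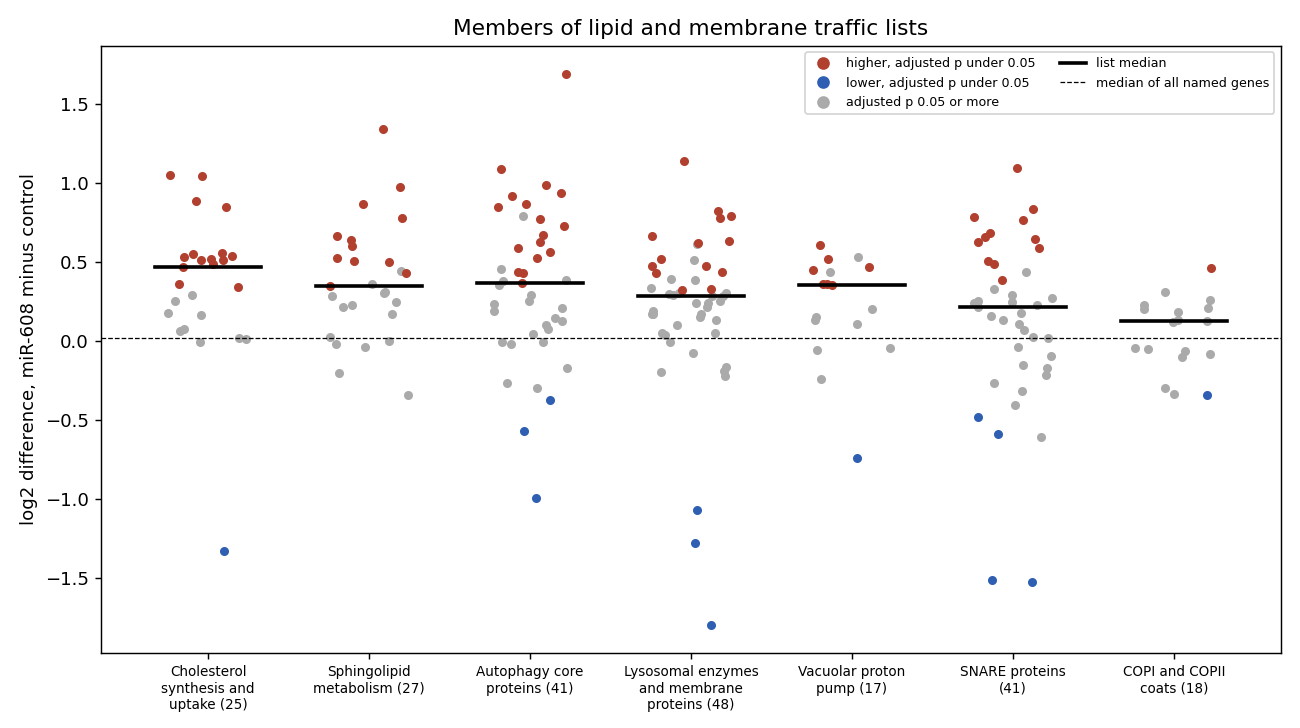
Log2 difference of each kept member (points) of 7 lipid and membrane traffic lists, miR-608 minus control, with the list median (bar) and the median of all named genes (dashed line). Single-group genes are included. Cholesterol, sphingolipid, autophagy, lysosome and proton pump lists have medians between 0.28 and 0.46, and the coat proteins of the early secretory pathway spread closely around 0.12 with 1 called gene each way.

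SNARE proteins fuse vesicles with their target membranes, and here 12 of 41 kept members rose and 4 fell (median 0.21, 0.13 to 0.23 with 1 array left out). Of the syntaxins, STX11 rose by 1.09 ± 0.14, STX12 by 0.84 ± 0.14, STX3 by 0.76 ± 0.09 and STX4 by 0.68 ± 0.15. NSF, the enzyme that takes spent SNARE complexes apart, rose by 0.78 ± 0.08, and its adaptor NAPG by 0.66 ± 0.08. The falls were larger: VAMP2 stood at 7.51 and 7.10 with miR-608, against 8.82 and 8.84 with the control mimic (-1.52 ± 0.16), and the Golgi SNARE GOSR1 fell by 1.51 ± 0.10. VAMP1 (-0.48 ± 0.10) and SNAP25 (-0.59 ± 0.12) fell less. The COPI and COPII coats, which carry cargo between the endoplasmic reticulum and the Golgi, had few calls, with 1 rise (SEC23B, 0.46 ± 0.08) and 1 fall (SEC16A, -0.34 ± 0.08) among 18 members; 3 rose and 0 fell with median scaling.

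Clathrin-mediated uptake held both rises and falls. Among the adaptor complexes 2 of 23 kept members rose and 6 fell. AP2B1, the beta subunit of the adaptor that gathers cargo at the plasma membrane, stood at 8.64 and 8.76 with miR-608, against 10.72 and 10.81 with the control mimic, a 4.19-fold fall (adjusted p = 0.00604). AP3D1 (-0.86 ± 0.08) and AP1S1 (-0.68 ± 0.11), of the endosomal and Golgi adaptors, also fell. Among clathrin accessory proteins 8 of 39 kept members rose and 9 fell (7 rose and 8 fell of 37 without single-group members, and 12 rose and 9 fell with median scaling). FCHO1, which starts coated pits, was detected on both control arrays and on neither miR-608 array, and was at least 4.88-fold lower. SH3GL1 (-1.87 ± 0.07) and EPN1 (-1.12 ± 0.07), which bend membrane, fell, and REPS2 was detected with miR-608 alone, at least 3.52-fold higher.

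**Figure D3:**
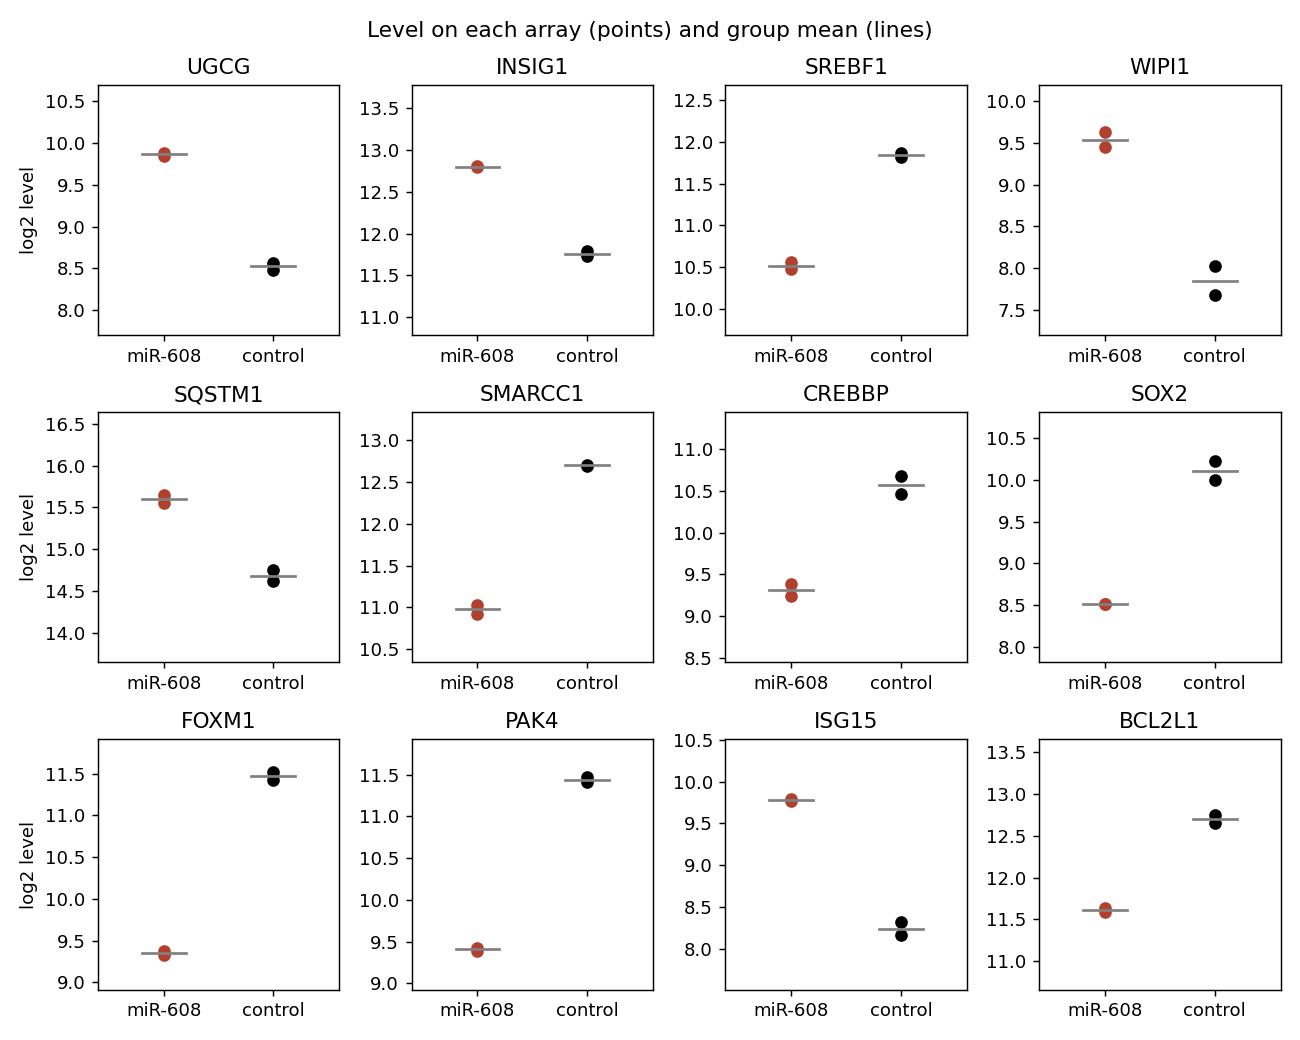
Log2 level on each array for 12 genes, with miR-608 (red) left of control (black) and a line at each group mean; every panel spans 3 log2 units. The 12 were picked from genes whose groups do not overlap, so that separation was fixed by the choice. It holds for 72.8% of all named genes. The arrays of a group lie within 0.35 of each other.

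Cytoskeleton genes moved in both directions. Of the contractile and SRF-linked actin genes 11 of 27 kept members rose and 5 fell, with a median of 0.21 (0.11 to 0.22 with 1 array left out). TAGLN, an actin-binding protein of smooth muscle and stress fibres, stood at 10.03 and 10.16 with miR-608, against 8.63 and 8.48 with the control mimic, a 2.91-fold rise (adjusted p = 0.00604). Myosin light chain MYL12A (0.86 ± 0.07) and its kinase MYLK (0.78 ± 0.15), calponin CNN2 (0.74 ± 0.08), vinculin VCL (0.54 ± 0.10) and ACTN1 (0.51 ± 0.08) rose as well. MRTFA, a coactivator of SRF that senses actin, stood at 7.65 and 6.997 with miR-608, against 8.77 and 8.88 with the control mimic and fell (-1.50 ± 0.24, adjusted p = 0.0194), as did its paralogue MRTFB (-0.40 ± 0.08), tropomyosin TPM2 (-0.89 ± 0.09), zyxin ZYX (-0.86 ± 0.07) and talin TLN1 (-0.68 ± 0.09).

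PAK4, a kinase that acts on actin, was among the 25 largest falls. It stood at 9.43 and 9.39 with miR-608, against 11.41 and 11.47 with the control mimic, a 4.09-fold fall (adjusted p = 0.00604), and a dimmer PAK4 probe was at -1.87 and just missed the threshold.

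Focal adhesions anchor these filaments to matrix through integrins. Of their signalling proteins 5 of 23 kept members rose and 9 fell, the falls led by TNS4 (-1.57 ± 0.15), NEDD9 (-1.29 ± 0.17), PARVB (-1.16 ± 0.13), SORBS3 (-1.11 ± 0.07) and kindlin FERMT1 (-0.76 ± 0.10). The paralogue FERMT2 rose by 0.82 ± 0.09, and the kinases PTK2B (0.73 ± 0.10), ILK (0.60 ± 0.08) and PTK2 (0.31 ± 0.07) rose. Integrin subunits had 4 rises and 0 falls among 16 (4 rose and 1 fell with cyclic loess), with ITGA6 at 0.82 ± 0.08. Among collagens, laminins and matrix glycoproteins 17 of 50 kept members rose and 3 fell (median 0.25), including the collagen cross-linking LOXL4 (1.77 ± 0.22), CCN2 (1.59 ± 0.09) and COL16A1 (1.31 ± 0.14), while the basement membrane proteoglycan AGRN fell by 1.12 ± 0.07. The list of the YAP and TEAD pathway, which responds to cell tension, held CCN2 and the ecto-enzyme NT5E (1.81 ± 0.08) among 12 rises, and its DNA-binding factor TEAD2 (-1.68 ± 0.09) among 2 falls, of 37 kept members (12 rose and 1 fell of 35 without single-group members). Of 30 claudins, desmosome and adherens junction members, 4 rose and 3 fell (4 rose and 2 fell of 27 without single-group members), with CGN (1.34 ± 0.08), CLDN12 (0.73 ± 0.07), CDH1 (0.61 ± 0.07) and CLDN1 (0.53 ± 0.07) up, and JUP (-0.81 ± 0.08) and CLDN15 (-0.50 ± 0.09) down. Dimmer still, CLDN3 was detected on the control arrays alone, at least 1.18-fold lower.

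Transcription factor families were among the lists most often lower. SOX factors share a DNA-binding box related to that of SRY and keep many progenitor states. Of 9 kept SOX genes, 5 fell and 1 rose, and the median was -0.61 (-0.62 to -0.48 with 1 array left out). SOX21 stood at 8.77 and 8.75 with miR-608, against 11.11 and 10.92 with the control mimic, a 4.78-fold fall (adjusted p = 0.00604). SOX2, a factor of lung progenitors and stem cells, stood at 8.52 and 8.51 with miR-608, against 10.23 and 10.00 with the control mimic (-1.60 ± 0.11, adjusted p = 0.00618). Its second probe also pointed down, at -0.99, without passing. SOX18 (-0.65 ± 0.12), SOX4 (-0.62 ± 0.11) and SOX13 (-0.50 ± 0.07) fell by less. SOX8 was the gene that rose (1.11 ± 0.08). SOX12 (-0.61), SOX7 (-0.33) and SOX9 (0.15) did not pass, though a second SOX7 probe was lower at -0.52.

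Forkhead factors bind DNA through a winged helix, and none rose: 11 of 23 fell (47.8%; 0 rose and 9 fell of 20 without single-group members, median -0.27), with a median of -0.31 (-0.37 to -0.24 with 1 array left out). FOXM1, which drives genes of the G2 and M phases, stood at 9.33 and 9.38 with miR-608, against 11.52 and 11.42 with the control mimic, a 4.35-fold fall, and its second probe fell as much. FOXJ2 (-0.98 ± 0.08), FOXQ1 (-0.69 ± 0.08) and FOXA1 (-0.82 ± 0.08), a factor that opens chromatin in lung and other endoderm, fell. FOXP4 was at least 1.40-fold lower and FOXI3 at least 1.22-fold lower, both undetected with miR-608.

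Nuclear receptors are factors switched by hormones, vitamins and lipids. With their coactivators, 12 of 30 fell and 2 rose (1 rose and 12 fell of 28 without single-group members, median -0.46), and the median was -0.46 (-0.46 to -0.32 with 1 array left out). PPRC1, a coactivator of mitochondrial genes, fell by 1.25 ± 0.08. NR4A2 (-1.11 ± 0.12), the vitamin D receptor VDR (-0.92 ± 0.16), the retinoic acid receptor RARA (-0.90 ± 0.08) and the orphan receptors NR2F6 (-0.86 ± 0.08) and NR2F1 (-0.72 ± 0.08) fell; a second NR4A2 probe was at -0.94 and missed the threshold narrowly. NR2C2 rose by 0.54 ± 0.12 on 1 probe and was at -0.09 on the other, not called. Homeobox factors had 15 falls and 6 rises among 48 (31.3% and 12.5%; 6 rose and 14 fell of 45 without single-group members), led by HOXC4 (-1.47 ± 0.13) and HOXD8 (at least 2.10-fold lower), with MSX1 (0.89 ± 0.09) up. KLF and SP factors had 2 rises, KLF2 (1.13 ± 0.08) and KLF6 (0.88 ± 0.10), and 2 falls, SP2 (-0.62 ± 0.08) and SP1 (-0.44 ± 0.08), among 15. Their median was still below 0, at -0.17 (-0.20 to -0.13 with 1 array left out).

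**Figure D4:**
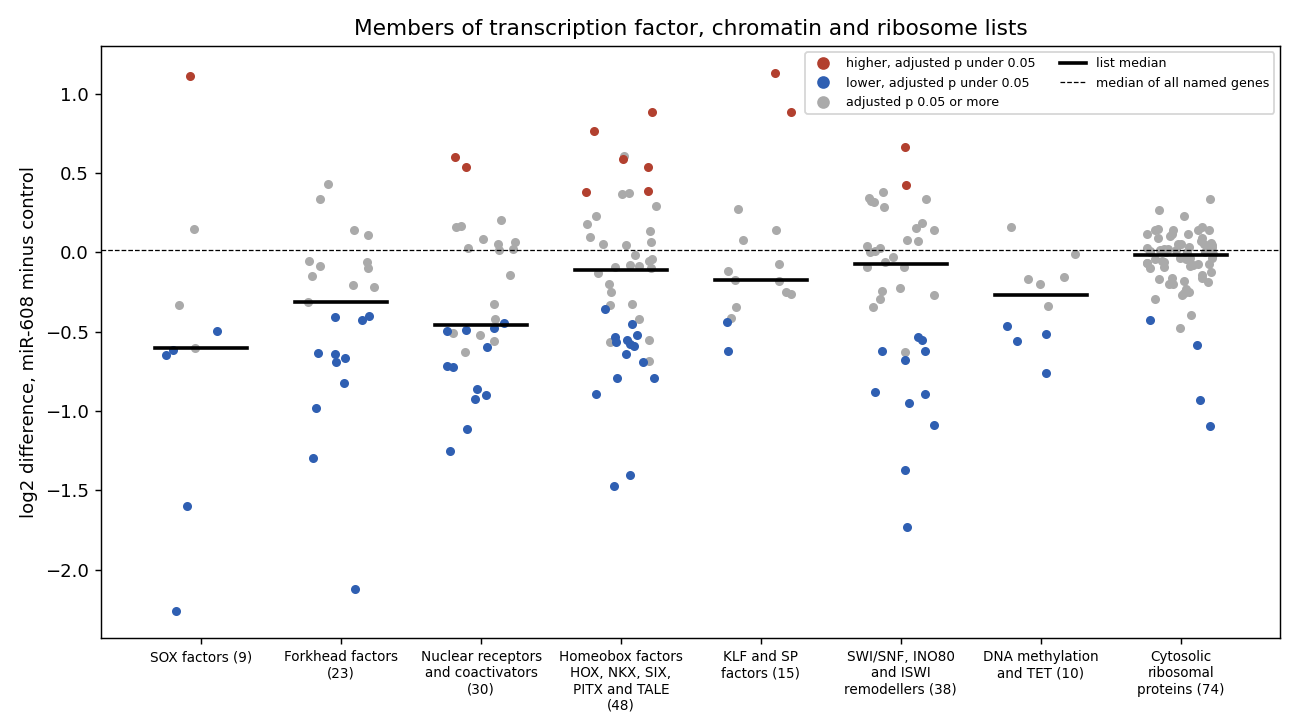
Log2 difference of each kept member (points) of 8 lists, miR-608 minus control, with list medians (bars). Single-group genes are included. SOX, forkhead and nuclear receptor lists lie mostly below the median of all named genes (dashed line), while the 74 cytosolic ribosomal proteins cluster around it with 4 falls and 0 rises.

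Several chromatin lists held more falls than rises, while Polycomb complexes had 5 rises and 5 falls among 32. These are 15.6% each way, near the 15.9% higher and 16.5% lower of all named genes. SWI/SNF complexes slide and evict nucleosomes with the energy of ATP. In the list that joins them with the INO80 and ISWI complexes, 2 of 38 kept members rose and 11 fell (5.26% and 28.9%; 5 rose and 11 fell with median scaling). The 6 largest falls were all in SWI/SNF subunits. SMARCC1 stood at 11.03 and 10.92 with miR-608, against 12.71 and 12.70 with the control mimic, a 3.32-fold fall (adjusted p = 0.00604), and its partner SMARCC2 at 10.74 and 10.76 with miR-608, against 11.85 and 11.82 with the control mimic (-1.09 ± 0.07). BCL7B (-1.37 ± 0.09), SS18 (-0.95 ± 0.11), SMARCD1 (-0.89 ± 0.08) and DPF2 (-0.88 ± 0.08) fell too. SMARCA2, one of the 2 alternative ATPases, rose by 0.43 ± 0.09, and the ISWI partner RSF1 by 0.66 ± 0.14. The list median was close to that of all genes, at -0.07 (-0.14 to -0.04 with 1 array left out), and turned to 0.02 with median scaling.

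Histone acetyltransferases open chromatin by acetylating histone tails. Their list had 10 falls and 5 rises among 35 (2 rose and 10 fell with cyclic loess), with a median of 0.01 (-0.02 with cyclic loess). CREBBP stood at 9.39 and 9.24 with miR-608, against 10.68 and 10.47 with the control mimic (-1.26 ± 0.11, adjusted p = 0.00792), and its paralogue EP300 fell by 0.76 ± 0.10. EP400 (-0.998 ± 0.11), KAT2A (-0.97 ± 0.08), JADE2 (-0.96 ± 0.09) and the reader BRD3 (-0.70 ± 0.08) fell. The rises were smaller, those of ING4 (0.70 ± 0.17), DMAP1 (0.43 ± 0.08), KAT2B (0.41 ± 0.10), KAT8 (0.39 ± 0.08) and HAT1 (0.36 ± 0.08).

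DNA methylation genes had 4 falls and 0 rises among 10 (0 rose and 3 fell of 9 without single-group members). TET1, which oxidises methylcytosine, fell by 0.76 ± 0.18, the methyl-DNA reader ZBTB33 by 0.51 ± 0.11 and the de novo methyltransferase DNMT3B by 0.46 ± 0.11, where 2 other DNMT3B probes (-0.19 and 0.44) were not called. DNMT3A was at least 1.07-fold lower and undetected with miR-608. DNMT1, the maintenance enzyme, was at -0.15, its partner UHRF1 at -0.17, MBD4 at -0.34, MBD1 at -0.20, UHRF2 at -0.01 and HELLS at 0.16, none of which passed. Histone methyltransferases and demethylases had 15 falls among 54 against 5 rises, the falls led by CARM1 (-1.48 ± 0.08), KMT5A (-1.42 ± 0.10) and SETD1A (-1.11 ± 0.08). Mediator, the bridge between factors and RNA polymerase II, had the lowest share called of the chromatin lists, with 4 rises and 5 falls among 29, none as large as 2-fold; MED30 (0.92 ± 0.08) and MED24 (-0.84 ± 0.08) were farthest apart. POLR2A, the large subunit of that polymerase, fell by 1.32 ± 0.09, and the elongation factor SUPT6H was lower as well (-1.71 ± 0.07).

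Genes of the microRNA machinery itself were also called. Of 17 kept members, 5 rose and 2 fell (29.4% and 11.8%, against 15.9% and 16.5% of all named genes). TNRC6A, the scaffold that links Argonaute to silencing, stood at 11.61 and 11.61 with miR-608, against 10.40 and 10.39 with the control mimic and rose by 1.21 ± 0.07 (adjusted p = 0.00604). AGO2, the Argonaute that can cut its target, rose by 0.76 ± 0.12, AGO3 by 0.50 ± 0.09 and DICER1, which makes mature microRNAs, by 0.40 ± 0.08. LIN28B, which blocks the maturation of let-7, rose by 0.85 ± 0.11. DROSHA, which starts processing in the nucleus, fell by 0.54 ± 0.08, and the helicase MOV10 by 0.88 ± 0.08. The median of the list, 0.02, changed sign between settings.

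Decapping and decay factors were split. DCP2, the decapping enzyme, stood at 12.43 and 12.28 with miR-608, against 11.0001 and 10.93 with the control mimic, a 2.62-fold rise (adjusted p = 0.00604), while PATL1, which brings it to messenger RNAs, stood at 10.84 and 10.89 with miR-608, against 12.12 and 12.06 with the control mimic and fell by 1.23 ± 0.08. With the exosome and nonsense-mediated decay genes, 6 of 36 kept members rose and 9 fell; SMG8 (0.54 ± 0.09) rose, CASC3 (-0.76 ± 0.07) and MAGOHB (-0.86 ± 0.10) fell, and MAGOH, the near-identical paralogue of MAGOHB, rose by 0.54 ± 0.10. SR proteins and heterogeneous ribonucleoproteins, which steer splicing, had 23 falls (27.4%) and 7 rises among 84 (10 rose and 17 fell with median scaling), with a median of -0.14 (-0.17 to -0.10 with 1 array left out). RBM15B (-1.63 ± 0.31), RBM12B (-1.23 ± 0.09), HNRNPH3 (-0.69 ± 0.10), HNRNPUL1 (-0.67 ± 0.07) and HNRNPA1 (-0.61 ± 0.11) fell, and CELF1 (0.99 ± 0.08), RBM5 (0.81 ± 0.10) and RBM15 (0.74 ± 0.08) rose.

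Few ribosomal proteins were called. Of 74 cytosolic ribosomal proteins 0 rose and 4 fell (5.41%; 1 rose and 4 fell with median scaling), against 16.5% of all named genes lower. These were RPL36A (-1.10 ± 0.15), RPL29 (-0.93 ± 0.13), RPL28 (-0.58 ± 0.10) and RPL13A (-0.42 ± 0.08); ribosomal protein genes have many near-identical copies, so single probes are uncertain. Ribosome biogenesis factors had 0 rises and 7 falls among 74 (2 rose and 4 fell with median scaling), and mitochondrial ribosomal proteins 2 rises and 7 falls among 76 (7 rose and 3 fell with median scaling). Translation factors had larger single changes. EIF4EBP1, which blocks the cap-binding factor until mTOR phosphorylates it, stood at 6.63 and 7.33 with miR-608, against 8.91 and 8.93 with the control mimic (-1.94 ± 0.25), and its paralogue EIF4EBP2 at 9.78 and 9.80 with miR-608, against 8.49 and 8.18 with the control mimic (1.46 ± 0.13), the opposite direction. The scaffold EIF4G1 (-1.44 ± 0.08) and EIF5A (-1.52 ± 0.08) fell. Over all 54 initiation factors 5 rose and 8 fell (3 rose and 8 fell with cyclic loess).

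Of the cell cycle lists, that of origin licensing was most often lower. Origins are licensed when the MCM helicase is loaded in G1, and 11 of 34 genes of this machinery fell (32.4%) and 1 rose (1 rose and 10 fell of 32 without single-group members, median -0.17), with a median of -0.18 (-0.22 to -0.15 with 1 array left out). The kinase CDC7, which fires origins, fell by 0.83 ± 0.12, the helicase subunits MCM4 by 0.67 ± 0.11 and MCM3 by 0.56 ± 0.08, the loader CDT1 by 0.61 ± 0.08 and the helicase cofactors GINS3 and GINS2 by 0.60 ± 0.07 and 0.56 ± 0.08. The helicase RECQL4 rose by 0.59 ± 0.09. These falls were all under 2-fold.

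Among mitotic kinases, checkpoint and passenger genes 2 of 44 kept members rose and 13 fell (4.55% and 29.5%), but 8 rose and 10 fell with median scaling. CDCA3, which promotes entry into mitosis, stood at 9.34 and 9.09 with miR-608, against 11.30 and 11.23 with the control mimic, a 4.14-fold fall (adjusted p = 0.00604). GTSE1 (-1.25 ± 0.08) and TACC2 (-1.22 ± 0.09), both microtubule-binding, the kinesin KIF20A (-0.98 ± 0.08), CDCA7 (-0.82 ± 0.07) and BORA (-0.74 ± 0.09), which activates Aurora A, fell, and NEK6 (0.67 ± 0.09) and ANLN (0.42 ± 0.07) rose. The median was -0.06. Kinetochore and centromere proteins, the part of the chromosome that spindles hold, had 6 rises and 5 falls among 40 (8 rose and 4 fell with median scaling). Many mitotic promoters carry the cell cycle homology region, TTTGAA, read by the complexes that repress and then activate them. It stood in 24 of 36 promoters of the list with an entry, against 15.4% of all promoters, and in 7 of 13 members that fell, 1 of 2 that rose and 16 of 21 not called. The matches of GTSE1 and KIF11, which fell (-0.60 ± 0.08), and of ANLN, which rose, are shown with 1 match in capitals, on GRCh38.p14. The ANLN stretch also holds a match on the other strand, left in lower case directly before the capitals.
GTSE1, chr22:46296834-46296859, plus strand: cggagcccttTTCAAAccgaccaatc
KIF11, chr10:92593092-92593117, plus strand: ctgtctctttTTCAAAttgaggcgcc
ANLN, chr7:36389832-36389857, plus strand: gaaattcaaaTTTGAAcggctgcaga
Genes with and without these letters thus both include called members, and KIF11 was chosen after its values were seen.

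Of 38 core and linker histones 11 rose and 2 fell (9 rose and 2 fell of 36 without single-group members). H2BC4 (1.26 ± 0.19), H2AC18 (0.92 ± 0.22), H2BC5 (0.86 ± 0.08), H3-3B (0.88 ± 0.08) and H3-5 (0.95 ± 0.14) rose, and H2BC6 was detected with miR-608 alone, at least 1.32-fold higher. Histone genes are near-identical, so values of single members are uncertain. The variants H2AX (-0.66 ± 0.12), which marks DNA breaks, and MACROH2A2 (-0.57 ± 0.08) fell. Cohesin and condensin had 2 rises, NCAPG (0.49 ± 0.09) and NIPBL (0.31 ± 0.07), and 2 falls, SMC6 (-0.57 ± 0.08) and WAPL (-0.37 ± 0.08), among 22 (1 rose and 2 fell with cyclic loess). Homologous recombination and Fanconi genes had 10 falls and 2 rises among 44.

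**Figure D5:**
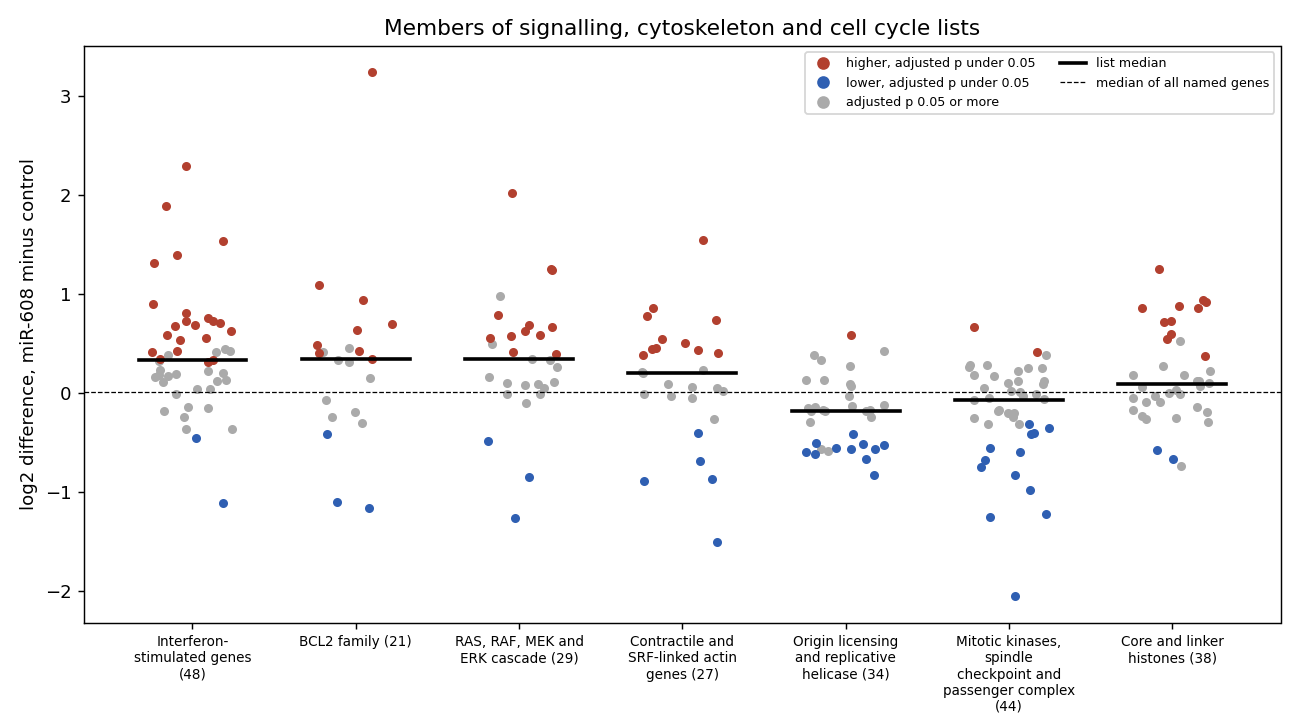
Log2 difference of each kept member (points) of 7 signalling, cytoskeleton and cell cycle lists, miR-608 minus control, with list medians (bars). Single-group genes are included. Interferon-stimulated, BCL2 and RAS cascade lists have medians of 0.34 to 0.35, and origin licensing lies at -0.18 with 11 falls and 1 rise.

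Of the genes published elsewhere as direct targets of miR-608, 9 were listed and 6 kept, of which 3 fell and 0 rose. BCL2L1, the survival protein BCL-XL, stood at 11.63 and 11.59 with miR-608, against 12.66 and 12.75 with the control mimic and fell by 1.09 ± 0.08 (adjusted p = 0.00642), where a second BCL2L1 probe was at -0.30 and missed the threshold. The transcription factor TFAP4 stood at 8.21 and 8.49 with miR-608, against 9.34 and 9.58 with the control mimic and fell by 1.11 ± 0.15. EGFR, the receptor of epidermal growth factor, stood at 9.52 and 9.52 with miR-608, against 10.43 and 10.46 with the control mimic on its brighter probe (-0.92 ± 0.07), but its other probe was higher, at 0.50, and passed too. CD44 (-0.20), CDC42 (-0.09) and the cytokine MIF (0.13) did not pass. Here too probes disagreed, as a second CD44 probe was lower at -0.55 and a second CDC42 probe higher at 0.52.

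The BCL2 family sets the threshold of apoptosis, with members for and against it. Of 21 members 9 rose and 3 fell (9 rose and 2 fell of 20 without single-group members, median 0.37), and the median was 0.34 (0.30 to 0.39 with 1 array left out). The pro-apoptotic BIK stood at 9.70 and 9.71 with miR-608, against 6.49 and 6.44 with the control mimic, a 9.45-fold rise (adjusted p = 0.00604). BID (0.94 ± 0.09) and PMAIP1 (0.70 ± 0.11), which also promote death, rose, as did MCL1 (0.64 ± 0.10), which opposes it. The effector BAX rose by 0.49 ± 0.08 on its brighter probe and was lower, at -0.72, on the other. Besides BCL2L1, the survival gene BCL2L2 fell by 0.41 ± 0.08, and the pro-apoptotic HRK was detected on the control arrays alone, at least 1.58-fold lower. Members for and against death were thus found among both the rises and the falls. Of the TNF superfamily 10 of 24 rose and 1 fell (8 rose and 1 fell of 22 without single-group members), including TNFRSF12A (1.38 ± 0.13) and the decoy receptor TNFRSF10D (1.32 ± 0.15).

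Interferon-stimulated genes are induced when cells sense viral or double-stranded RNA, and 22 of 48 rose (45.8%) while 2 fell (19 rose and 1 fell of 44 without single-group members, median 0.34), with a median of 0.34 (0.31 to 0.35 with 1 array left out). ISG15, a ubiquitin-like antiviral protein, stood at 9.77 and 9.79 with miR-608, against 8.31 and 8.16 with the control mimic, a 2.91-fold rise. MX1 (1.89 ± 0.10), IRF7 (1.40 ± 0.12), IFI6 (1.32 ± 0.08) and SAMD9 (0.90 ± 0.09) rose, and IFI27 was at least 4.25-fold higher than the undetected control. The exceptions were IFI44L, at least 1.45-fold lower and undetected with miR-608, and HERC6 (-0.45 ± 0.09). Among the sensors, RIGI rose by 0.71 ± 0.16 while CGAS stood at 5.69 and 6.42 with miR-608, against 8.40 and 7.62 with the control mimic (adjusted p = 0.0283); CGAS was detected on 1 of 2 miR-608 arrays.

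The interferon-stimulated response element was searched on either strand as 2 runs of TTTC with any 2 bases between them. It stood in 26 of 41 promoters of this list with an entry (63.4%) and in 3.65% of all promoters. Of the members that rose 11 of 19 held it, of those that fell 1 of 2, and of those not called 14 of 20. A stretch is shown for 3 genes that rose and for IFI44L, which fell, with 1 match in capitals, on GRCh38.p14. In the ISG15 stretch a further match overlaps the one in capitals and begins before it.
IFI27, chr14:94110633-94110658, plus strand: gtttcctgGAAAATGAAAcctatctc
ISG15, chr1:1013382-1013407, plus strand: gggaaaggGAAACCGAAActgaagcc
IFI6, chr1:27672268-27672293, minus strand: agagtgcaGAAATAGAAActccgaca
IFI44L, chr1:78620367-78620392, plus strand: ctagtgagGAAAAAGAAAgttagtgg
Members with the element were thus found among those that rose, those that fell and those not called. In 23 of all promoters the interferon element shared bases with TTTGAA, and no other pair of the motifs searched did.

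Growth factor signalling lists differed. The list of EGFR family receptors and ligands had 5 rises and 6 falls among 25, and the p38 and JNK cascade 5 rises and 9 falls among 33. In the RAS, RAF, MEK and ERK list 12 of 29 kept members rose and 3 fell (median 0.35, 0.25 to 0.42 with 1 array left out; 10 rose and 3 fell of 27 without single-group members, median 0.34), with the GTPase RRAS2 at 1.25 ± 0.09 and RRAD at least 2.65-fold higher than the undetected control, while the kinase RPS6KA4 fell by 1.26 ± 0.10. Genes of ERK feedback and of the immediate-early response were divided. FOSL1 (2.05 ± 0.11) and PHLDA2 (1.83 ± 0.10) rose, and JUN rose by 0.99 ± 0.16, while FOS stood at 8.94 and 8.72 with miR-608, against 10.81 and 10.23 with the control mimic (-1.69 ± 0.23) and EGR1 at 9.29 and 9.41 with miR-608, against 11.11 and 10.26 with the control mimic (-1.34 ± 0.30). The control arrays differed by more for FOS and EGR1 than for most genes named here. Wnt pathway genes had 9 rises and 14 falls among 46 (8 rose and 13 fell of 44 without single-group members), the falls led by BCL9 (-1.65 ± 0.10), a coactivator of beta-catenin, and the receptor FZD8 (-1.53 ± 0.15), with the secreted DKK3 up (1.40 ± 0.07). In the Notch and Hedgehog list 8 of 31 kept members rose and 10 fell (6 rose and 10 fell of 29 without single-group members), MAML1 (-1.61 ± 0.15) and the target HEY1 (-1.45 ± 0.12) being lower and the glycosyltransferase LFNG higher (1.70 ± 0.09). Protein tyrosine phosphatases had few calls (1 rose and 1 fell with cyclic loess), with PTPN1 (0.51 ± 0.07) and PTPN3 (0.38 ± 0.09) up and PTPN23 down (-1.85 ± 0.25) among 23.

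TRIM proteins, ubiquitin ligases with roles in antiviral defence and transcription, had 14 falls and 5 rises among 40 (35.0% and 12.5%; 5 rose and 11 fell of 36 without single-group members, median -0.21, and 8 rose and 11 fell with median scaling), and a median of -0.28 (-0.28 to -0.20 with 1 array left out). TRIM2 (-1.54 ± 0.16), TRIM3 (-1.12 ± 0.18), TRIM68 (-0.98 ± 0.08) and TRIM28 (-0.89 ± 0.07), a corepressor of zinc finger proteins, fell. The retroviral restriction factor TRIM5 fell by 1.16 ± 0.07, with 1 of 2 other TRIM5 probes also lower and the other, at -0.32, not called. TRIM35 (0.99 ± 0.21), TRIM8 (0.69 ± 0.09), TRIM6 (0.58 ± 0.08) and the interferon-inducible TRIM21 (0.57 ± 0.08) rose.

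The unfolded protein response relieves stress in the endoplasmic reticulum, and its list with the ATF4 program had 11 rises and 7 falls among 39 (15 rose and 6 fell with median scaling). The cystine transporter SLC7A11 stood at 11.01 and 10.98 with miR-608, against 9.56 and 9.54 with the control mimic, a 2.72-fold rise. The chaperone CANX (0.86 ± 0.08), DNAJB9 (0.80 ± 0.09), CRELD2 (0.79 ± 0.08) and MANF (0.70 ± 0.09) rose, whereas the chaperone HYOU1 (-1.13 ± 0.08), SESN2 (-1.16 ± 0.24), DDIT4 (-0.53 ± 0.10) and the response's own factor XBP1 (-0.42 ± 0.08) fell. GPI anchors fix proteins to the outer membrane leaflet. Their synthesis genes were called often in both directions, with 6 rises and 9 falls among 27. PIGL (-0.97 ± 0.10), PIGC (-0.94 ± 0.10) and PIGM (-0.84 ± 0.11) fell, all enzymes of early or middle steps, and PGAP6, which trims the anchor, rose by 1.30 ± 0.08. The cytosolic chaperonin CCT and prefoldin had 2 rises, VBP1 (0.46 ± 0.08) and CCT5 (0.35 ± 0.08), and 0 falls among 15.

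At the cell surface, tetraspanins, mucins, galectins and related proteins had 10 rises and 11 falls among 47 (9 rose and 8 fell of 43 without single-group members, and 13 rose and 9 fell with median scaling). The proteoglycan SDC4 stood at 9.19 and 9.19 with miR-608, against 7.42 and 7.68 with the control mimic, a 3.11-fold rise. The tetraspanin CD9 rose by 1.03 ± 0.11, though a second CD9 probe at 0.25 was not called, and TSPAN4 (0.65 ± 0.07), CD82 (0.61 ± 0.10) and galectin LGALS3 (0.64 ± 0.09) rose. The mucin MUC1 (-1.15 ± 0.10), CD109 (-1.03 ± 0.08) and the tetraspanins TSPAN9 (-0.99 ± 0.08) and TSPAN8 (-0.63 ± 0.11) fell. TGM2, the crosslinking transglutaminase, was among the 25 largest falls on its brightest probe (-1.98 ± 0.08), but 2 other TGM2 probes were called higher, at 1.31 and 0.47, so its direction depends on the probe.

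The cell identity was checked with marker lists. Of 12 epithelial markers of A549 and airway cells 10 were kept, and their summed linear level was 80830 to 81450 with miR-608, against 87032 to 88736 with the control mimic, with 2 members up (CDH1 and KRT8, 0.41 ± 0.07) and 2 down (MUC1 and CD24, -0.62 ± 0.07). Of 11 alveolar type II markers 2 were kept, ABCA3 (0.94 ± 0.12) and LAMP3 (0.39, not called), and none of the surfactant genes was kept. The sum of these 2 was 1132 to 1263 with miR-608, against 639 to 737 with the control mimic. Of 14 fibroblast and endothelial markers 4 were kept and 0 called, with a sum of 462 to 477 with miR-608, against 402 to 416 with the control. Of 14 immune and blood markers 6 were kept, at 3317 to 3691 with miR-608, against 3634 to 3877 with the control, and 1 was called (ITGAM, 0.80 ± 0.16). The part of these markers in the results was not tested.

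A gene is represented above by its brightest kept probe, and probes of a gene did not always give the same answer. Of the genes named in the text, 98 had at least 1 other kept probe, and 37 of these had another probe whose call differed. Beside the cases given with their genes, another probe was not called for BID (0.05), CDCA7 (-0.12), HNRNPUL1 (-0.10), JUP (-0.10), PARVB (-0.12), PTK2 (0.07), HAT1 (0.17), SS18 (0.30 and -0.06), TET1 (0.13 and -0.34) and CPT1A (0.29 and 0.13). A further probe was called in the same direction as the brightest for BID (0.85), HNRNPUL1 (-0.80), JUP (-0.87) and SS18 (-0.98). For CDCA7, PARVB, PTK2, HAT1, TET1 and CPT1A the change given above rests on the brightest probe. The other probes of CD82, H2AC18, ITGA6, NIPBL, PFKFB3, PMAIP1 and SNAP25 pointed the same way without passing. So did 1 other probe of NSF (0.42) and 1 of TPM2 (-0.38). The remaining other probes of NSF (1.06, 0.91 and 0.94) and TPM2 (-0.92) were called in the same direction as the brightest.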

How the data were processed

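Biotinylated RNA of transfected A549 cells was hybridised to Illumina bead arrays, per the labels' protocols. For 47319 probes the authors deposited a linear signal intensity on each array, from GenomeStudio 2011.1 per the submitters' processing notes. A detection p-value stands beside each signal, per the file headers. Any background subtraction by the authors was not given in the sources used here. Deposited log2 values of the authors were used only as an alternative.

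The 4 arrays were processed together with neqc in limma 3.58.1 (R 4.3.3), which used the detection p-values for background correction, added an offset of 16, equalised quantiles and took log2. The offset understates differences of dim probes. Probes detected (p under 0.05) on 2 or more of the 4 arrays were kept, 19403 in number, and 27916 were dropped. The platform annotation gave 1 gene symbol for 30112 probes, several for 8 and no entry for 17199, unnamed here; 30073 matched RefSeq gene identifiers. A gene is its kept probe with the highest mean. The fit was lmFit with eBayes, miR-608 minus control, two-sided, with 2 residual and 4.16 total degrees of freedom; other probes of a gene were tested in a fit over all kept probes. Slide and scan date were not given in the sources used here, and the number of arrays limits the precision.

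The 141 gene lists were written by hand and the genes and lists were chosen with earlier results of these data known; no list was tested as a set, and 1 list is not reported here. Described in depth were, per theme, the 3 lists with the largest share called in 1 direction and the list with the lowest share called. Named genes are the up to 6 largest called members each way of those lists without overlap between groups, up to 3 called members each way of other lists, all kept members of lists with up to 12, published miR-608 targets and the 25 largest changes each way. Of 11366 named genes 9226 had a RefSeq promoter. The limma step was tested on simulated data. Alternatives in background, offset, normalization, detection filter, probe choice, variance prior, pairing and arrays are given in the closing section.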

Additional observations from a re-analysis of the deposited data

How the results depend on the processing

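With all 4 arrays 2208 rows were higher and 2367 lower, 300 and 506 of them at least 2-fold. Leaving out 1 array changed this most: over the 4 such fits 0 to 432 rows were higher and 0 to 719 lower, with 0 to 263 and 0 to 471 at least 2-fold. These fits have 1 residual degree of freedom, and the lone array of a group is assumed to vary like the other group. With no detection filter 745 rows were higher and 1017 lower. Counts of 2-fold changes depended on the background step, with 93 higher and 204 lower without correction, 97 and 203 with the authors' log2 values, and 124 and 251 with normexp at offset 50. These 4 counts stayed within 1.5 times under cyclic loess, median scaling, an intensity trend, offset 50, detection on all 4 arrays, the mean of a gene's probes, all 6 arrays and the replicate block. With the replicate block 1517 rows were higher and 1801 lower. Deviations of same-numbered arrays had a correlation of -0.03, and whether these arrays share a culture or batch is not stated. Of 313 called genes named in the text, 1 changed sign: BAX was at -0.12 with the mean of its probes. Of the 13 named but not called, CDC42, DNMT1 and UHRF2 changed sign in at least 1 setting. Without the detection filter 110 named genes lost their call, and with the replicate block 45 did. Of 130 counts of list members called each way, 7 to 55 moved by over 1.5 times in settings that kept all 4 arrays and a detection filter, 103 without the filter and 110 to 122 with 1 array left out. Counting only members detected in both groups, a choice made after seeing the data, moved 3. The cause was not tested.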

Other observations

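Several families outside the lists above also held large changes with miR-608. The plasminogen system, in which secreted urokinase cleaves plasminogen at the cell surface, had 3 strong rises: urokinase PLAU (2.08 ± 0.08), its receptor PLAUR (1.67 ± 0.07) and tissue activator PLAT (1.63 ± 0.07). They are the 3 largest rises of the extracellular protease list, where 10 of 40 kept members rose and 5 fell (9 rose and 4 fell of 37 without single-group members). Chemokines, interleukins and colony-stimulating factors had 7 rises and 1 fall among 20 (7 rose and 1 fell of 19 without single-group members), led by IL32 (2.53 ± 0.14), CCL20 (1.81 ± 0.07) and CXCL5 (1.61 ± 0.09). In the list of NF-kB subunits, kinases and inhibitors 10 of 40 kept members rose and 4 fell, where RELB (0.99 ± 0.11) and the feedback inhibitor TNFAIP3 (1.12 ± 0.19) were higher and RELA (-0.58 ± 0.12) and NFKBIB (-0.73 ± 0.07) lower. Paralogues within a family thus went opposite ways, as EIF4EBP1 and EIF4EBP2, FERMT1 and FERMT2, and FOS and FOSL1 did.

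Septins, filament-forming GTPases, had 3 rises and 3 falls among 11 (3 rose and 2 fell of 9 without single-group members), with SEPTIN9 at 13.28 and 13.37 with miR-608, against 14.85 and 14.81 with the control mimic (-1.51 ± 0.08) and SEPTIN4 higher (0.94 ± 0.15). Aminoacyl-tRNA synthetases, which charge transfer RNAs, had 8 falls and 1 rise among 33 (median -0.13, -0.19 to -0.10 with 1 array left out), among them VARS1 (-1.09 ± 0.07) and LARS2 (-1.05 ± 0.09). Purine and pyrimidine synthesis had 10 falls and 5 rises among 37 (8 rose and 10 fell with median scaling), with the kinase NME4 lower (-1.94 ± 0.09). IMPDH1, the rate-limiting enzyme of guanine nucleotides, was lower on its brightest probe (-1.34 ± 0.08), while 2 other IMPDH1 probes (-0.25 and -0.10) were not called. Serine, glycine and folate enzymes had 0 rises and 3 falls among 24 (3 rose and 2 fell with median scaling).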
